A study of Mus musculus with 16 samples.

Results

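The comparison set the transcriptome of hippocampal neurons grown with apoE4 lipoproteins directly against that of neurons grown with apoE3 lipoproteins. Its members were the 4 apoE4 and the 4 apoE3 count libraries, 8 of the 16 libraries in the series, taken by their labels, and all genes were compared. The neurons were primary cultures of wild type CD1 mouse pups of P0 to P2, so they carried their own mouse *Apoe* gene, and all had received cytosine arabinoside against dividing cells on the third day in vitro (DIV). Conditioned medium of astrocytes, concentrated 10-fold, was added at 10 and 13 DIV, and RNA was taken at 17 DIV. The apoE3 and apoE4 media came from immortalized astrocyte lines of targeted replacement mice homozygous for the human ε3 or ε4 *APOE* allele, whereas apoE2 medium came from the ε2 line and control medium from *Apoe*-/- astrocytes. All media held 25-hydroxycholesterol, and *Apoe*-/- medium was used to level apoE between isoforms. How many lines of each genotype were used is not given in the sources used here, and the allele and the line that made the medium cannot be told apart in these libraries.

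ApoE carries lipids between cells of the brain. Its main source there is the astrocyte, and the LDL receptor family mediates its uptake, which supplies cholesterol for the membranes and synapses of neurons. ApoE3 is the common human form, and apoE4, which differs from it by a single amino acid, is the form tied to a higher risk of Alzheimer's disease and is known to be the more poorly lipidated of the pair.

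In all, 182 genes were higher and 118 lower with apoE4 than with apoE3 at an adjusted p under 0.05, which is 1.07% and 0.693% of the 17038 genes tested and 1.76% in both directions. The test was the quasi-likelihood test of edgeR on counts, with libraries of the same replicate number paired. Most of the calls were moderate in size, with a median of 0.763 (log2) for those higher and 0.739 for those lower, and 54 and 36 of them reached a 2-fold difference. The sign was the same in 4 of 4 pairs for 179 of the 182 and 116 of the 118. In 82 and 37 of them the apoE4 and apoE3 libraries did not overlap at all, against 1.34% of all genes with every apoE4 library above and 1.11% with every apoE4 library below. By the criterion the study states, an unadjusted p under 0.05 together with a difference of 2-fold or more, 227 genes were higher and 130 lower, 1.33% and 0.763% of those tested. The median log2 fold change of all genes was -0.02, and 46.5% of genes were above 0. The filter on low counts was met by 10 of the 182 higher genes only through the apoE4 libraries and by 1 of the 118 lower genes only through the apoE3 libraries, so these could be tested only because they were high there. Of the genes named here they are *Igf2bp1*, *E2f7*, *Elf4*, *Hist1h4m*, *Ankrd1*, *Ear-ps8* and *Mir7053*. Those that are on a gene list lend no support to its counts.

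These counts rested on the pairing and on particular cultures. Without the replicate number in the model, 23 genes were higher and 2 lower at the same threshold, all of them among the paired calls. Leaving out apoE3 replicate 1 left 72 and 30 genes, apoE3 replicate 3 left 78 and 36, apoE4 replicate 1 left 93 and 55, and apoE4 replicate 3 left 95 and 39. Without apoE3 replicate 2 the counts were 283 and 142, and without apoE2 replicate 4, which is not one of the 8 but enters the shared model, 249 and 194. The 8 libraries held 14087723 to 32455651 counts on genes. Reads that HTSeq put on no single gene made up 38.6 to 73.1% of a library, and the share of *Lars2*, a gene that overlaps a repeat of ribosomal origin, was 0.359 to 12.5% of the gene counts. Neither share separated the groups.

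**Figure D1:**
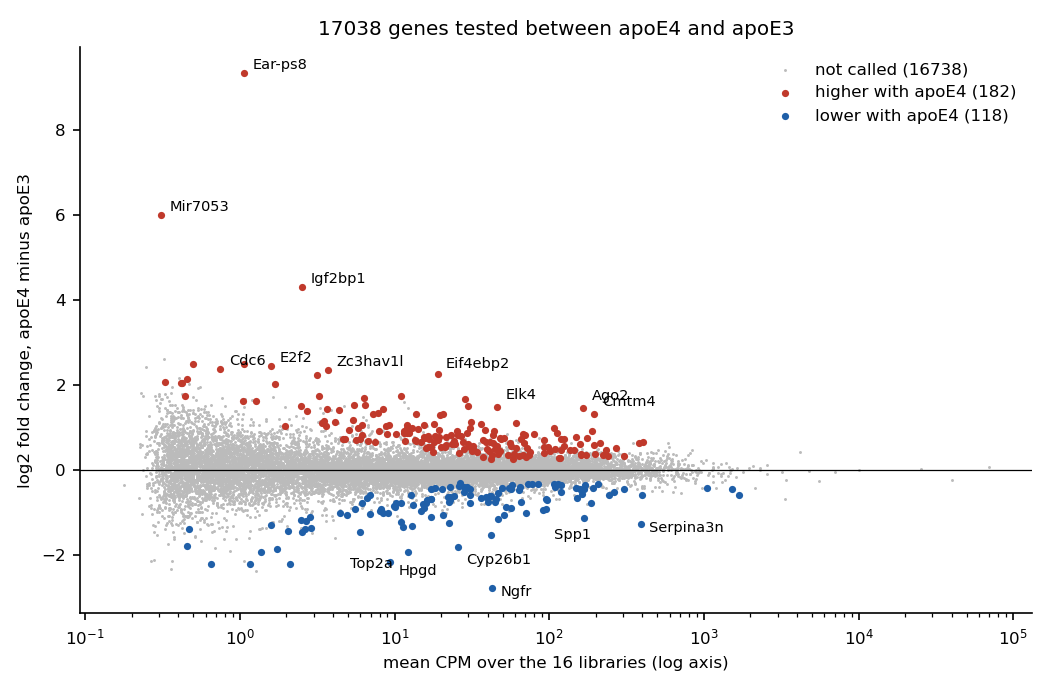
Log2 fold change of apoE4 minus apoE3 (vertical axis) against the mean CPM (counts scaled to a common library size) over the 16 libraries (horizontal log axis) for each of the 17038 genes tested. Red points are the 182 genes higher and blue points the 118 genes lower with apoE4 at an adjusted p under 0.05, grey points were not called; the fitted values of *Ear-ps8* and *Mir7053*, which had 0 and 1 read over the apoE3 libraries, depend on the prior count of the fit.

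Among the genes of smallest p was *Igf2bp1* (ENSMUSG00000013415.9, chr11:95957163-96005940, minus strand, GRCm38), which codes for an RNA-binding protein of fetal tissues that stabilizes its target mRNAs. In CPM, the apoE3 libraries of replicates 1 to 4 held 0.762, 0.123, 0.190 and 1.12 of its RNA and the apoE4 libraries 14.1, 5.70, 6.26 and 11.3. In what follows, a difference is the log2 fold change of apoE4 minus apoE3 unless it is said to be in CPM. For *Igf2bp1* all apoE4 libraries were far above all apoE3 libraries, with a log2 fold change of 4.29 ± 0.36 (SE), adjusted p = 4.48e-05, or 0.0504 without the pairing. It was nearly silent in the control medium, with a mean of 0.169 ± 0.162 (SD, n = 4), and with apoE2, with 0.0637 ± 0.0441 (SD, n = 4). *Eif4ebp2* (chr10:61428491-61452661, minus strand) codes for the 4E-BP of neurons, which binds eIF4E and holds back cap-dependent translation. Its level was 10.4, 7.22, 9.07 and 15.9 CPM in the apoE3 and 85.9, 29.8, 38.0 and 58.0 CPM in the apoE4 libraries, a log2 fold change of 2.26 ± 0.21 (SE), adjusted p = 0.000140. It was the only one of the 20 tested genes of the eIF4E list to be called.

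Several genes of small RNA silencing and mRNA decay were higher with apoE4. Of 27 tested Argonaute, GW182 and decapping genes, 6 were higher and 0 lower with apoE4, against 1.07% and 0.693% of all tested genes. In this list 24 genes had a positive log2 fold change and the median was 0.15. The list was written with earlier results of these data known, so the count is not independent evidence. Without the pairing 2 of its genes were called higher. *Ago2* (chr15:73095844-73184935, minus strand), the Argonaute that can cut its target RNA, stood at 98.1, 126, 128 and 106 CPM with apoE3 and at 442, 227, 313 and 289 CPM with apoE4, groups that did not overlap (log2 fold change of 1.45 ± 0.18, SE, adjusted p = 0.000934). *Dcp2*, the enzyme that removes the mRNA cap, was at 60.5, 57.5, 54.8 and 54.5 CPM with apoE3 and 127, 73.5, 88.0 and 123 CPM with apoE4. The groups lay apart for this gene too, with a log2 fold change of 0.83 ± 0.11 (SE), adjusted p = 0.00206. *Tnrc6b*, a GW182 protein that links Argonautes to decay enzymes, differed by 0.72, *Ago3* by 0.49 and *Dicer1*, which cuts miRNA precursors, by 0.43, each with every apoE4 library above every apoE3 library. *Cnot6*, a deadenylase of the CCR4-NOT complex, was higher by 0.67, with overlapping groups.

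Cell cycle genes did not move as a block, but a few of their regulators were among the larger differences. *Cdk6* (chr5:3341485-3531008, plus strand), a cyclin D-dependent kinase that opens G1, was at 8.38, 2.5, 6.02 and 8.53 CPM with apoE3 and 24.5, 8.38, 11.1 and 21.0 CPM with apoE4. It was higher in each of the 4 pairs, although the ranges overlapped (log2 fold change of 1.35 ± 0.15, SE, adjusted p = 0.000409). *E2f2*, an activating E2F factor, rose from 0.990, 0.287, 0.495 and 1.90 to 7.59, 2.51, 3.10 and 5.85 CPM, without overlap, and *E2f7*, a repressing one, differed by 1.74. These 3 were all the calls among 24 E2F and retinoblastoma genes, whose median was 0.00. As *E2f7* passed the filter on low counts only through the apoE4 libraries, only *Cdk6* and *E2f2* can support that count. *Cdc6*, which loads the replicative helicase at origins, went from 0.381, 0.205, 0.229 and 0.591 CPM to 2.71, 1.14, 1.44 and 1.98 CPM (log2 fold change of 2.38 ± 0.36, SE, adjusted p = 0.00329) and was the only call among 41 tested S phase genes. Of 54 genes of G2 and mitosis, *Cbx5* (HP1α, 0.67) and *Gas2l3* (1.03) were higher and *Top2a* (topoisomerase II α, -1.91) was lower, and the median was 0.01. Among 53 tested replication-dependent histone genes *Hist1h3b*, *Hist1h4m* and *Hist1h2bm* were higher, by 1.62, 2.49 and 1.4, and the median was 0.16. *Hist1h4m* had 3 to 6 reads in an apoE3 library and 19 to 56 in an apoE4 library. It passed the filter on low counts only through the latter and does not support the count of histone genes. Histone genes of a class are near copies of each other, so the division of reads among them is uncertain.

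The 250 bases before the start sites of *Cdc6* and *E2f7* hold a match to the E2F site, searched on both strands as TTTCCCGC, TTTCGCGC, TTTGGCGC or TTTGCCGC, spellings that share their first and last letters and were counted once where they overlap. They are shown because both genes are known to be driven by E2F factors and were called here, *E2f7* with an adjusted p of 0.0455 that rose to between 0.0706 and 0.155 on leaving out any 1 of the 8 libraries. The sequences are from RefSeq on GRCm38.p6, 5′ to 3′ on the strand of the gene, chr11:98907901-98908150 (plus) for *Cdc6* and chr10:110745189-110745438 (plus) for *E2f7*, with the match in capitals, at -138 and -198 from the start site.
Cdc6: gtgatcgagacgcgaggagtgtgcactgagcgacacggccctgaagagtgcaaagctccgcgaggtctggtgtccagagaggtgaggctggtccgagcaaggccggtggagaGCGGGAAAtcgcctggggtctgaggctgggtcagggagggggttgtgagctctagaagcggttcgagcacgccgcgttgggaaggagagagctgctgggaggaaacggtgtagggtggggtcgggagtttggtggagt
E2f7: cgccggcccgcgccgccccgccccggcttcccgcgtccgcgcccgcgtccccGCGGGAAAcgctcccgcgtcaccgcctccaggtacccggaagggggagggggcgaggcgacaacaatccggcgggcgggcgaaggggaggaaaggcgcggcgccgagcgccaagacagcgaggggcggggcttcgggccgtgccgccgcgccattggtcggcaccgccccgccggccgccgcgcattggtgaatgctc
Of the 133 genes higher with apoE4 that matched a RefSeq promoter, 8 held such a match in any of their promoters (6.02%). The same held for 2 of 84 lower genes (2.38%), 427 of 11600 tested genes (3.68%) and 583 of all 27025 genes with a promoter (2.16%). The windows of *E2f2* and *Cdk6* held none.

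Of the ETS transcription factors, 3 of 18 tested were higher and 0 lower, against 1.07% and 0.693% of all tested genes. Of these, *Elf4* passed the filter on low counts only through the apoE4 libraries and does not support the count. *Elk4* (chr1:132007607-132032612, plus strand), a partner of serum response factor, was at 35.7, 24.1, 34.3 and 39.3 CPM with apoE3 and 127, 57.6, 81.9 and 110.2 CPM with apoE4 (log2 fold change of 1.48 ± 0.15, SE, adjusted p = 0.000211). *Elf4* differed by 2.5 and *Etv3* by 0.42. The groups were apart for *Elk4* and *Elf4* and overlapped for *Etv3*. Among genes of the Hippo pathway and its TEAD and YAP branch, *Frmd6* and *Ankrd1* were the calls among 30, with 0.69 and 2.08, the second on 2 to 6 reads in an apoE3 and 9 to 28 in an apoE4 library. *Ankrd1* passed the filter on low counts only through the apoE4 libraries, so it does not support the count of this list. *Ptpn14*, a phosphatase known to restrain YAP and not on that list, rose from 33.3, 7.87, 15.2 and 51.4 to 108, 31.1, 51.0 and 90.0 CPM (log2 fold change of 1.52 ± 0.21, SE, adjusted p = 0.00222).

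Several single regulators rose beside lists that did not. *Mafg*, a small MAF partner of NRF2 and BACH factors, was at 95.9, 89.7, 104 and 98.8 CPM with apoE3 and 229, 138, 154 and 194 CPM with apoE4, and *Bach2* differed by 0.95. In the remaining NRF2 list nothing was called, and 18 of its 24 genes were below 0. *Hipk2*, a kinase that phosphorylates p53, was higher by 1.09 and *Zmat3*, a p53 target, by 1.00, whereas the 28 genes of the p53 and DNA damage list had a median of -0.15 and no other call. The membrane proteins *Cmtm4* and *Mfsd4a* differed by 1.32 and 1.68, and 22.8% of the exons of *Mfsd4a* lie over an antisense gene, so its reads may be shared. *Mfsd4a* (chr1:132022806-132068062, minus strand) also overlaps the position of *Elk4* on the plus strand, and whether their calls are separate was not tested. *Cmtm4* was at 129.7, 141, 155 and 151 CPM with apoE3 and 451, 259, 321 and 415 CPM with apoE4. The collagen receptor *Ddr2* (1.09), the CCCH zinc finger gene *Zc3hav1l* (2.36), the zinc finger gene *Zfp280b* (1.30), *Tmem194* (1.19), *AI506816* (1.75) and *AI606181* (1.54) completed the leading genes other than *Cdh23*, described with the synaptic genes. For *Zc3hav1l* the apoE3 libraries held 1.22, 2.13, 1.22 and 2.43 CPM and the apoE4 libraries 13.8, 6.30, 6.42 and 9.92 CPM, and the groups lay well apart.

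The apoE4 libraries ranked alike in several of these genes. For *Igf2bp1*, *Eif4ebp2*, *Elk4*, *Cmtm4*, *Mfsd4a*, *Cdk6*, *Cdc6* and *E2f2*, replicate 1 was the highest apoE4 library and replicate 2 the lowest. Replicate 2 was also the apoE4 library with the smallest share of reads in HTSeq rows that name no gene, 38.6%, and replicate 1 that with the largest, 73.1%, a link that was not tested.

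**Figure D2:**
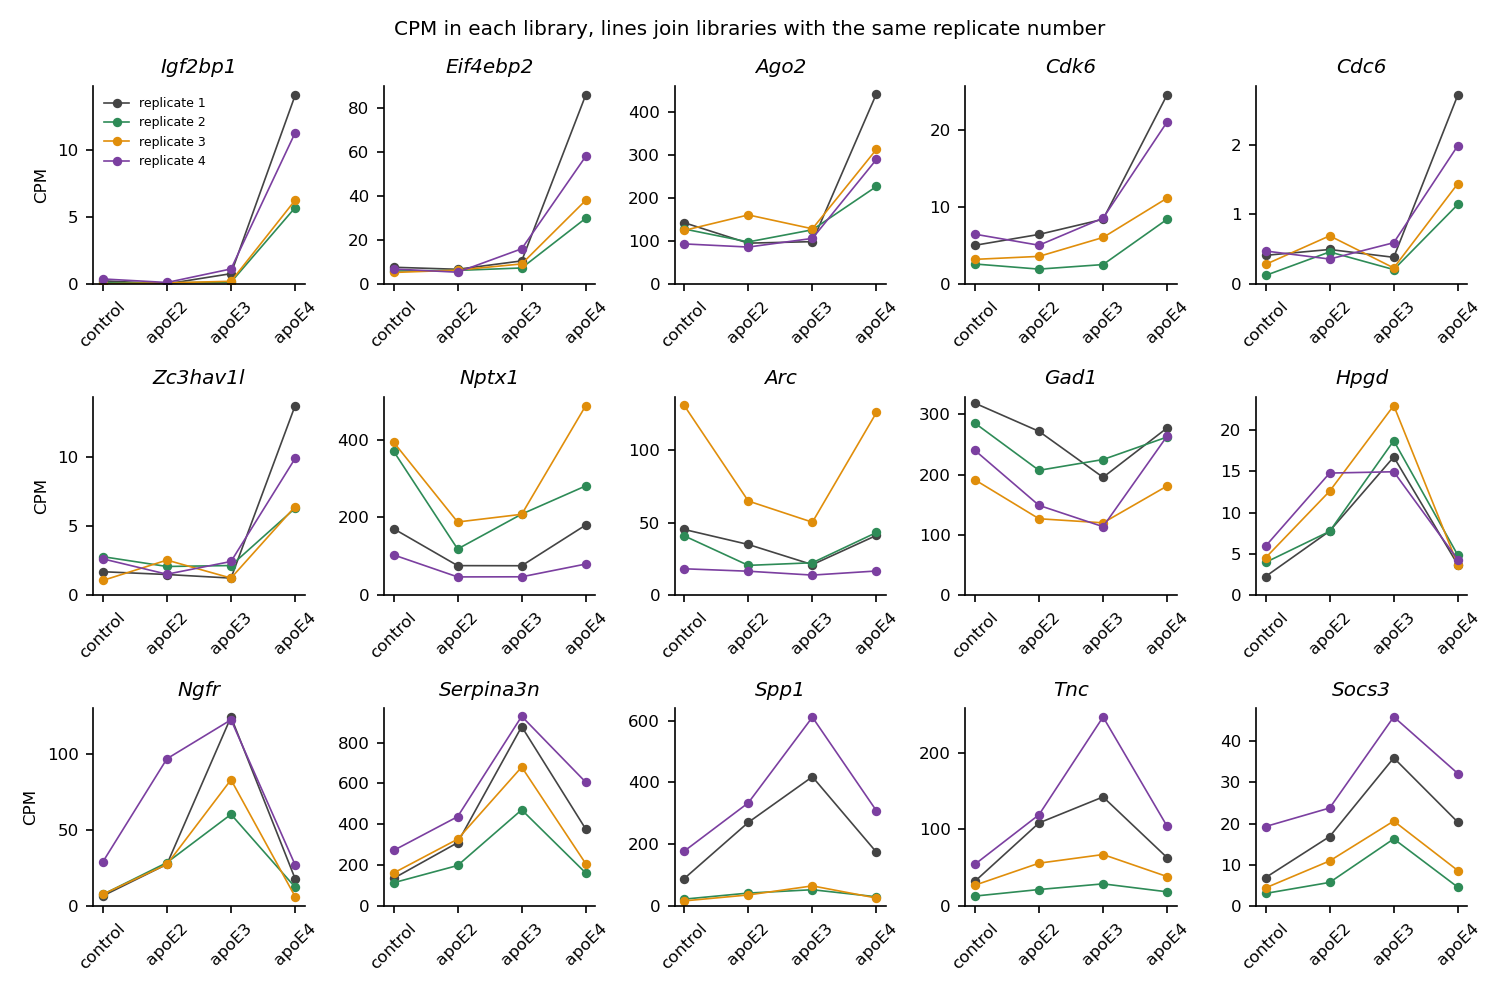
CPM (vertical axes, starting at 0) of 15 genes in every library of the control, apoE2, apoE3 and apoE4 groups, 4 libraries each, with lines joining libraries of the same replicate number. *Igf2bp1*, *Eif4ebp2*, *Ago2*, *Cdk6*, *Cdc6* and *Zc3hav1l* have their highest mean with apoE4, *Nptx1*, *Arc* and *Gad1* are at about the control level with apoE4 and lower with apoE3, and *Hpgd*, *Ngfr*, *Serpina3n*, *Spp1*, *Tnc* and *Socs3* are highest with apoE3.

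The genes higher with apoE4 had long transcripts, with a median exon length of 7420 bases against 4131 in those lower and 4094 in all tested genes, and long 3′ untranslated regions (UTRs), the part of an mRNA after the stop codon where miRNAs and RNA-binding proteins act. The longest annotated 3′ UTR had a median of 3672 bases in the 167 of them with a value, 1479 bases in 110 genes lower with apoE4 and 1390 bases in 13973 tested genes. Of the 1297 tested genes whose 3′ UTR reached 4000 bases, 70 (5.40%) were higher and 11 (0.848%) lower, whereas of the 2771 under 500 bases 7 (0.253%) were higher and 15 (0.541%) lower. The share of genes called lower stayed between 0.541 and 0.918% over the 5 length classes. *Igf2bp1* has 6337 annotated bases after its stop codon, *Eif4ebp2* 5306, *Ago2* 11064, *Cdk6* 10217 and *Cmtm4* 6936. The trend ran through all tested genes, with a median log2 fold change of -0.071 under 500 bases and 0.087 from 4000 bases. With offsets for transcript length and GC content in the model these medians were -0.048 and 0.015, and 0.253% and 4.70% of the 2 classes were called higher. In that fit the share called lower also went up with length, from 0.505% under 500 bases to 1.31% from 4000 bases. Exon length and 3′ UTR length go together, and their parts were not tested separately. The median level was 25.5 CPM for the genes called higher, 26.2 CPM for those lower and 14.5 CPM for all genes.

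**Figure D3:**
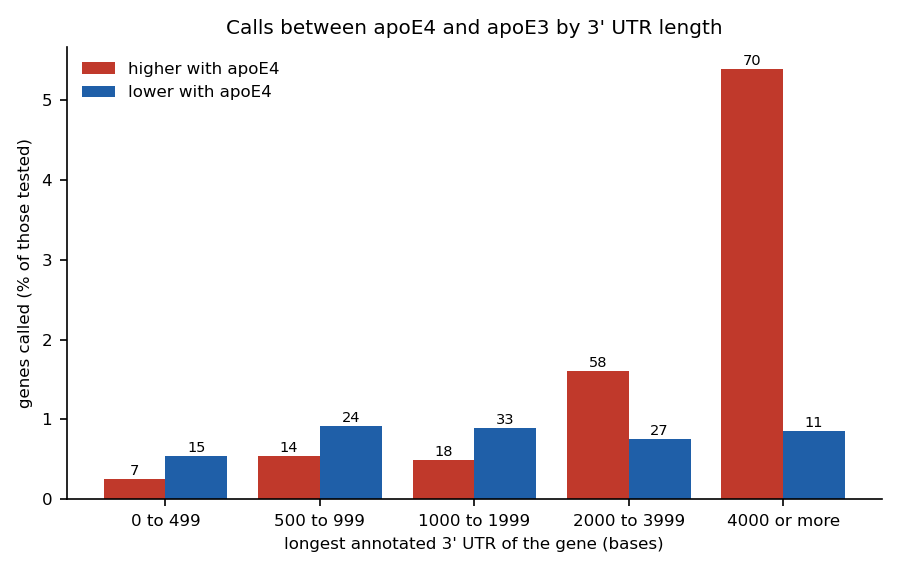
Share of tested genes called higher (red) or lower (blue) with apoE4 than with apoE3 (vertical axis, percent) in 5 classes of the longest annotated 3′ UTR (horizontal axis, bases), with the number of genes called above each bar. The red bars go from 0.253% under 500 bases to 5.40% at 4000 bases or more, and the blue bars stay between 0.541 and 0.918%.

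A few transcripts were read in the apoE4 libraries and hardly anywhere else. By a rule set after the values were seen, at least 5 reads in every library of a group and at most 2 in each of the 12 others, 4 genes belonged to apoE4 and 0 to apoE3, apoE2 or control. *Ear-ps8* (chr14:43901685-43902038, minus strand), a pseudogene of the eosinophil-associated ribonucleases, had 33, 26, 39 and 233 reads in the apoE4 libraries and 0 in all others. Against a floor of 3 reads over the 4 apoE3 libraries it was at least 99.6-fold higher, as a description of a gene so chosen, a bound that was 38 without apoE4 replicate 4, which held most of the reads, and 153 without replicate 2. The *Ear* genes are near copies, so which of them gave these reads is uncertain, and 34.5% of its length lies over an antisense gene. *Usp44*, a deubiquitinase of the mitotic checkpoint that was below the filter on low counts, had 22, 7, 19 and 45 reads with apoE4 and 3 in all with apoE3, and was, as all 4 were, chosen for that contrast, so no ratio is given for it. The others were the predicted gene *Gm42427*, with 56 reads against 0, and *Mir7053*.

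*Mir7053* (chr7:44538106-44538178, minus strand) lies within the gene of the DNA polymerase δ subunit *Pold1*. Its 73-base locus had 20, 17, 26 and 26 reads in the apoE4 libraries and 0, 0, 1 and 0 in the apoE3 libraries. *Pold1* itself was at 5.87, 2.71, 2.82 and 5.64 CPM with apoE3 and 4.88, 2.74, 2.44 and 5.19 CPM with apoE4 (log2 fold change of -0.13 ± 0.18, SE, adjusted p = 0.760). The libraries were not made for small RNAs, and which transcript the reads come from was not tested. The mature forms are shown, with the seed of bases 2 to 8 in capitals, because they identify the locus.
mmu-miR-7053-5p: uGGGGAAAggcaggcuacugg
mmu-miR-7053-3p: cUCCUGUGucuccuuccccag

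Where the control medium stood divides the 300 calls. Levels in log2(mean CPM + 0.1) were used, and the control was assigned to the group, apoE3 or apoE4, that it lay nearer to. Of the 182 genes higher with apoE4, the control was nearer apoE3 in 118 and nearer apoE4 in 64. Of the 118 lower genes it was nearer apoE4 in 109 and nearer apoE3 in 9. Over all tested genes it was nearer apoE4 in 10506 and nearer apoE3 in 6532. The apoE2 group lay nearer apoE3 in 164 of the 182 higher genes, among them all 118 in which the control did as well, and in 43 of the 118 lower genes, against 8719 of all 17038 tested genes. By these means 291 of the 300 calls fell into 3 groups, all but the 9 lower genes with the control nearer apoE3, namely those that stood out with apoE4, those that were lower with apoE3 than in the control, mostly with apoE2 too, and those that were raised with apoE3. Long 3′ UTRs marked the first (median 4336 bases in 106 genes with a value) more than the second (2179 bases in 61), while the median exon length was 7331 and 7639 bases. Some genes of the group raised with apoE3 were above the control with apoE4 too. *Serpina3n*, *Sbno2*, *Spp1* and *Xdh* were so by 0.90, 0.74, 0.72 and 0.93 (log2, edgeR, adjusted p from 0.00494 to 0.0206). *Hpgd*, *Ngfr* and *Trhr*, with 0.04, 0.44 and -0.33, were not called between apoE4 and control.

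**Figure D4:**
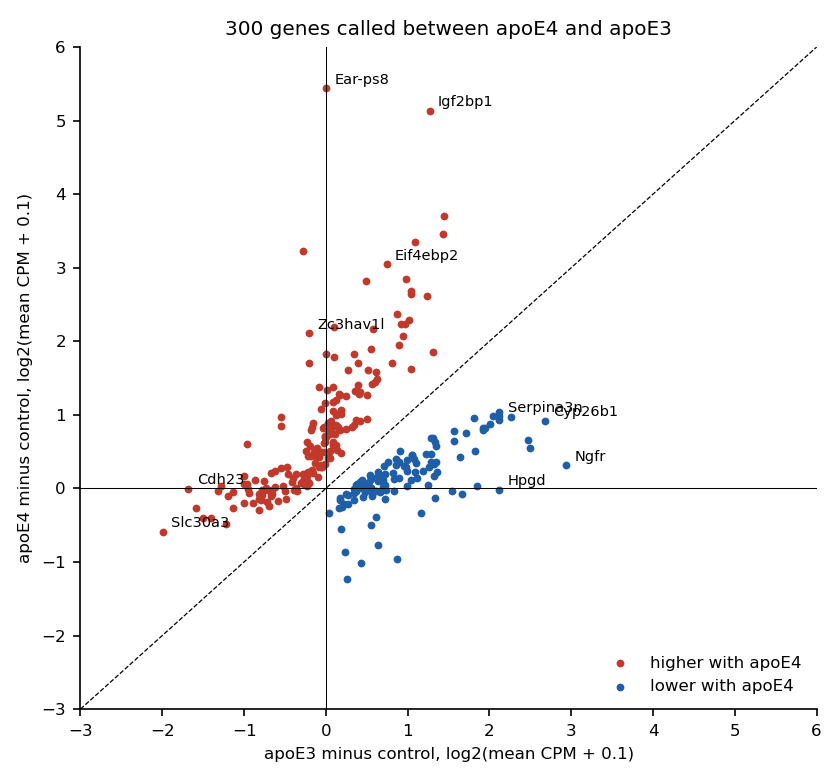
Difference from the control in log2(mean CPM + 0.1) for apoE3 (horizontal axis) and apoE4 (vertical axis), 1 point for each of the 300 called genes, red for higher and blue for lower with apoE4 than with apoE3. Both axes subtract the same 4 control libraries; the dashed line marks equal levels with apoE3 and apoE4, and blue points mostly stretch to the right at a small apoE4 difference.

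Some genes of synapses and neuronal activity were higher with apoE4. *Nptx1* (neuronal pentraxin 1, chr11:119538719-119547753, minus strand), a secreted protein that gathers AMPA receptors at synapses, was at 75, 208, 208 and 46.5 CPM with apoE3 and 180.1, 281, 488 and 79.4 CPM with apoE4. It was higher in every pair, while the cultures differed so much that the ranges overlapped (log2 fold change of 0.92 ± 0.14, SE, adjusted p = 0.00265). Its control level was 259.6 ± 145 (SD, n = 4) CPM and its apoE2 level 107 ± 61.5 (SD, n = 4) CPM. It was the only call among 13 pentraxin, C1q-like and cerebellin genes. *Slc30a3*, which loads zinc into glutamate vesicles, was at 1.37, 6.07, 3.24 and 0.131 CPM with apoE3 and 6.30, 8.49, 12.5 and 2.04 CPM with apoE4 (log2 fold change of 1.53 ± 0.31, SE, adjusted p = 0.0193), and its control mean was 11.1 ± 5.66 (SD, n = 4) CPM. *Gsg1l*, an auxiliary subunit that slows the recovery of AMPA receptors, was at 2.29, 4.35, 2.63 and 1.57 and 5.63, 5.62, 6.59 and 5.14 CPM, without overlap (log2 fold change of 1.14 ± 0.25, SE, adjusted p = 0.0319). In the opposite direction, *Syndig1l* fell from 22.6, 14.7, 27.6 and 14.4 CPM to 11.5, 7.87, 4.76 and 7.58 CPM (log2 fold change of -1.32 ± 0.30, SE, adjusted p = 0.0398). These were the 2 calls among 21 AMPA receptor genes, whose median was 0.09.

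Of 31 immediate early genes, which neurons switch on with activity, 3 were higher with apoE4 and 0 lower. *Arc*, which tunes AMPA receptor uptake, was at 20.9, 22.2, 50.2 and 13.6 CPM with apoE3 and 41.1, 43.1, 126 and 16.5 CPM with apoE4, with replicate 3 the highest in both groups (log2 fold change of 0.91 ± 0.17, SE, adjusted p = 0.0105). *Egr3* differed by 0.92 and the ERK phosphatase *Dusp5* by 0.67. *Egr2*, which the study discusses, was at 1.75, 1.48, 2.10 and 2.69 CPM with apoE3 and 2.91, 3.71, 5.09 and 1.83 CPM with apoE4 and did not pass (log2 fold change of 0.70 ± 0.44, SE, adjusted p = 0.460). *Cdh23*, the cadherin of hair cell tip links, was at 3.66, 2.5, 5.26 and 0.656 CPM and 10.7, 5.67, 18.1 and 5.04 CPM (log2 fold change of 1.70 ± 0.24, SE, adjusted p = 0.00222) and at 9.90 ± 5.76 (SD, n = 4) CPM in the control. Of the ion channels, *Cacna1e*, the R-type calcium channel, differed by 0.78 and *Kcnc2*, the Kv3.2 potassium channel of fast-spiking neurons, by 0.49. They were the calls among 28 sodium, calcium and HCN channel genes and 42 potassium channel genes, of which 20 and 31 were above 0.

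Other synaptic lists held 0 calls. Of 14 NMDA and kainate receptor genes 6 were higher and 1 lower at an unadjusted p under 0.05, and the median was 0.35. Of 13 GABA-A receptor genes 7 were higher and 1 lower, with a median of 0.32, and 12 of the 13 were above 0. All genes gave 8.45% higher and 7.81% lower at that unadjusted level. Among the genes nearest to the threshold were *Grin3a* (0.45, adjusted p = 0.0973), *Grik2* (0.39, adjusted p = 0.106) and *Gabrb2* (0.37, adjusted p = 0.118). Synaptic vesicle genes had 9 of 33 and postsynaptic and adhesion genes 10 of 30 higher at the unadjusted level, with 1 and 0 lower and medians of 0.17 and 0.14. *Syt7*, *Pclo* and *Nrxn3* were among the nearest, with 0.45, 0.71 and 0.43 and adjusted p from 0.0648 to 0.122. The genes of the proteins that the study stained, *Map2*, *Dlg4*, *Grin1*, *Syp* and *Gfap*, differed by 0.10, 0.24, 0.40, 0.06 and -0.43, and none of the 5 passed.

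Genes on the list of GABAergic markers were called in both directions, the lower one by *Cck* alone. *Gad1*, which makes GABA, was at 195, 225, 119.7 and 113 CPM with apoE3 and 278, 262, 181 and 264 CPM with apoE4, and *Reln*, the secreted ligand of the apoE receptors VLDLR and ApoER2, at 85.7, 69.8, 51.1 and 80.8 and 121, 99.0, 72.1 and 130.1 CPM (log2 fold change of 0.63 ± 0.13 (SE), adjusted p = 0.0198 for *Gad1* and log2 fold change of 0.54 ± 0.10 (SE), adjusted p = 0.0120 for *Reln*). *Cck*, a peptide of some interneurons, fell by 0.76, with 127, 326, 411 and 122 CPM and 66.4, 331, 211 and 48.9 CPM, and so not in replicate 2. The other defining markers differed by less, *Gad2* by 0.31 and *Slc32a1* by 0.09, and did not pass, so the 16 GABAergic markers gave 2 higher and 1 lower.

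The genes lower with apoE4 were led by *Hpgd* (chr8:56294585-56321043, plus strand), the dehydrogenase that inactivates prostaglandins. It was at 16.8, 18.7, 23.0 and 15 CPM in the apoE3 and 3.66, 4.82, 3.65 and 4.27 CPM in the apoE4 libraries, which did not overlap (log2 fold change of -2.16 ± 0.22, SE, adjusted p = 0.000211). The control was at 4.15 ± 1.53 (SD, n = 4) CPM and apoE2 between, at 10.7 ± 3.56 (SD, n = 4) CPM. None of the other 18 tested prostaglandin genes was called. *Ngfr* (chr11:95568818-95587735, minus strand), the p75 neurotrophin receptor, had the largest fall of the named genes, from 124, 60.1, 82.9 and 122 CPM to 17.9, 12.3, 6.09 and 27.0 CPM (log2 fold change of -2.76 ± 0.29, SE, adjusted p = 0.000211), with 12.6 ± 10.9 (SD, n = 4) CPM in the control. *Gfra1*, a receptor of GDNF, fell by 0.74. These 2 were the calls among 16 neurotrophin and receptor genes, and *Ngfr* was the only call in the LINGO and Nogo receptor family, where it is a co-receptor.

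Of the genes of retinoid metabolism, 3 were lower as well. *Cyp26b1*, which breaks down retinoic acid, was at 60.4, 14.5, 52.0 and 88.3 CPM with apoE3 and 13.2, 3.82, 25 and 21.4 CPM with apoE4 (log2 fold change of -1.81 ± 0.27, SE, adjusted p = 0.00292). *Dhrs3*, which reduces retinaldehyde, fell by 0.78 and *Rxrg*, a retinoid X receptor, by 0.74. Of the 23 tested vitamin D and retinoid genes these 3 were lower and 0 higher, with a median of -0.20, and *Vdr*, which the study discusses, differed by -0.30 and did not pass.

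*Serpina3n* (chr12:104406729-104414329, plus strand), a secreted inhibitor of serine proteases and a marker of reactive astrocytes, was at 878, 470.5, 680.1 and 929 CPM with apoE3 and 376, 161, 206 and 606 CPM with apoE4 (log2 fold change of -1.25 ± 0.17, SE, adjusted p = 0.00222), and at 169.9 ± 70.3 (SD, n = 4) CPM in the control. Its apoE2 level was 318 ± 97.9 (SD, n = 4) CPM. Its neighbours *Serpina3h* and *Serpina3i* fell by 1.24 and 1.22, but the 3 are near copies, so reads may have been divided among them. *Sbno2*, a corepressor induced by interleukins, was at 100.2, 54.7, 99.3 and 100.3 and 59.3, 22.3, 33.4 and 67.0 CPM, a fall in every pair (log2 fold change of -1.05 ± 0.15, SE, adjusted p = 0.00229). *Stat3*, *Socs3*, *Bcl6* and *Jak3*, named next, were on no list and were chosen after their values were seen to fall, so they say nothing of STAT3 signalling as a group. *Stat3* was at 258, 189.9, 270.0 and 287 CPM with apoE3 and 193, 142, 173 and 254 CPM with apoE4 (log2 fold change of -0.42 ± 0.09, SE, adjusted p = 0.0253), and *Socs3*, a feedback inhibitor of cytokine signalling, at 36.0, 16.3, 20.6 and 45.9 and 20.3, 4.53, 8.58 and 32.2 CPM (log2 fold change of -1.09 ± 0.19, SE, adjusted p = 0.00881). *Bcl6* and *Jak3* fell by 0.57 and 0.58, with adjusted p of 0.0254 and 0.0346. In each of these genes the groups overlapped, while all 4 pairs showed the same sign.

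The letters TTCNNNGAA, the site to which STAT factors are known to bind, occur in the 250 bases before the start sites of *Socs3*, *Bcl6* and *Sbno2*. RefSeq gives *Bcl6* a second start site, whose window holds 1 match, and *Sbno2* 2 others, of which 1 window holds 1 match and 1 holds 0. One matching window of each gene is shown, from RefSeq on GRCm38.p6, 5′ to 3′ on the minus strand, with each match in capitals. They span chr11:117969367-117969616, chr16:23981284-23981533 and chr10:80102703-80102952. The match begins at -154 in *Socs3*, at -168, -122 and -88 in *Bcl6* and at -26 in *Sbno2*, relative to the start site.
Socs3: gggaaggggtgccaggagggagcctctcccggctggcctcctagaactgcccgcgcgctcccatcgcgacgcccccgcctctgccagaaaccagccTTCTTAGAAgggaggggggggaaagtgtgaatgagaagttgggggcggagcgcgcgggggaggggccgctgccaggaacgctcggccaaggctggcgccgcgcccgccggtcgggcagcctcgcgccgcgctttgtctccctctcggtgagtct
Bcl6: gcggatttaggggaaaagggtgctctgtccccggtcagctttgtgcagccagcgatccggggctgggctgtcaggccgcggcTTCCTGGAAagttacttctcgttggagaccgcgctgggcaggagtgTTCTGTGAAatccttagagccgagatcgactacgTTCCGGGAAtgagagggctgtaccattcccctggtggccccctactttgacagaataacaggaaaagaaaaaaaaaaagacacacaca
Sbno2: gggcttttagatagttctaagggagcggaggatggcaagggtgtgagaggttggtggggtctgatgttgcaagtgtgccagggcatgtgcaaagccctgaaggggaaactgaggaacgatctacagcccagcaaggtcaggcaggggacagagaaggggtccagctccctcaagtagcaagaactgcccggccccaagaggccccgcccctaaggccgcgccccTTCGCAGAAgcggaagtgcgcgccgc
The windows of *Stat3*, *Serpina3n* and *Jak3* held no match. Searched on both strands and in any promoter of a gene, the letters occurred in 5 of 84 lower genes (5.95%) and 8 of 133 higher genes (6.02%). They occurred in 829 of 11600 tested genes (7.15%) and 2197 of all 27025 genes with a promoter (8.13%).

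Secreted and matrix genes of the apoE3-raised group included *Spp1* (osteopontin), at 418, 52.2, 64.6 and 611 CPM with apoE3 and 174, 29.3, 25.3 and 308 CPM with apoE4. It differed by -1.12 in the mean of the pairs, although replicates 1 and 4 were several times above replicates 2 and 3 in both groups, and 18.8% of its exons overlap a predicted gene. *Tnc* (tenascin C) was at 142, 28.7, 67.1 and 247 and 63.0, 18.3, 38.2 and 104 CPM (log2 fold change of -0.99 ± 0.15, SE, adjusted p = 0.00355), and *Col6a1* fell by 0.70. They were the 2 calls, both lower, among 36 genes of collagens, laminins, integrins and other matrix. Of 30 cytoskeleton and growth genes, *Gap43*, the growth-associated protein of axon tips, fell from 349.7, 584, 620.5 and 414 to 199, 512, 350.1 and 297 CPM, and *Tuba1a* by 0.45 with an adjusted p of 0.0497, where near copies of this tubulin and a predicted gene over 26.2% of its exons make the reads uncertain. *Hspb1*, a small heat shock protein, fell by 1.01 and was the only call among 21 chaperone genes, of which 19 were below 0 with a median of -0.11.

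Further leading genes lower with apoE4 served other roles. *Trhr*, the receptor of thyrotropin-releasing hormone, was at 76.4, 71.0, 54.0 and 41.7 CPM with apoE3 and 24.9, 27.0, 15.2 and 19.1 CPM with apoE4, groups that lay apart. *Top2a*, which untangles DNA in dividing cells, was at 26.5, 35, 15.8 and 16.5 and 6.24, 5.79, 4.15 and 10.4 CPM and thus fell while *Cdc6* and *E2f2* rose. The glycine receptor *Glra3*, the xanthine dehydrogenase *Xdh*, the formin *Fhod3*, *Smim3* and *Rasgef1c* fell by 1.85, 1.32, 1.13, 1.03 and 1.05.

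Genes of lipid handling differed little by the adjusted test. Of 24 tested apoE receptor genes and regulators, 2 were higher and 0 lower, *Reln* among them, and the list's median was -0.01. Of 23 LXR target and efflux genes 0 were called in edgeR, 2 were higher at an unadjusted p under 0.05, and the range was -0.34 to 0.26, with *Abca2* (0.20) and *Abcg4* (0.26) nearest to the threshold. Cholesterol synthesis genes mostly had negative values, with 22 of 25 below 0, a median of -0.43 and 16 genes at an unadjusted p under 0.05. Of these only *Sc5d*, the sterol C5 desaturase, passed after adjustment, at 37.0, 93.0, 84.0 and 48.8 CPM with apoE3 and 28.7, 81.2, 48.2 and 35.9 CPM with apoE4 (log2 fold change of -0.45 ± 0.10, SE, adjusted p = 0.0408). Among 33 lipases and glycerolipid genes 0 were called in edgeR, with 5 higher and 2 lower at the unadjusted level, and *Alox5* (-1.07) and *Lipg* (0.93) came nearest.

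Of the 18 tested genes that the study discusses by isoform, *Nptx1*, *Hipk2*, *Slc30a3* and *Gsg1l* were higher and *Syndig1l* lower, and these libraries are those on which the study chose them, so the count is not independent evidence. The others did not pass. *Prkd3* differed by 0.42, *Apobr* by 0.88, *Slc7a11* by 0.22, *Trib3* by 0.42, *C1ql1* by -0.61, *Wnt7a* by 0.45, *Gpc3* by 0.77, *Otof* by -0.06, *Stx11* by -0.26 and *Liph* by -0.37. The 27 tested genes of ER stress and the integrated stress response held 0 calls in edgeR, with 2 higher and 2 lower at the unadjusted level, *Ppp1r15b* at 0.23 and *Ddit4* at -0.20 being nearest. In the list of REST, PTBP and let-7 genes *Igf2bp1* was the 1 call of 16, and it passed the filter on low counts only through the apoE4 libraries.

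**Figure D5:**
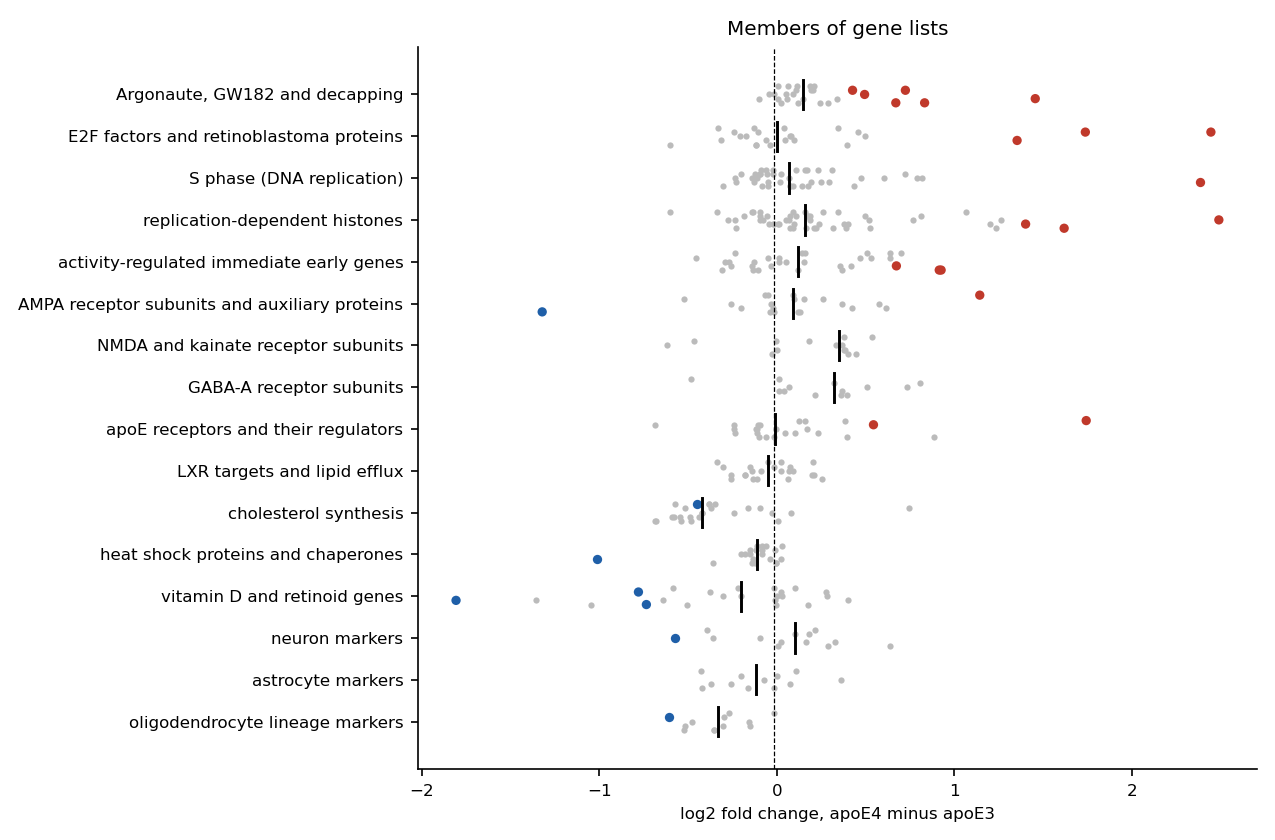
Log2 fold change of apoE4 minus apoE3 (horizontal axis) of each tested member of 16 gene lists, with red and blue points for members called higher or lower, grey points for the rest, a black bar at the list's median and a dashed line at the median of all genes, -0.02. Points are spread vertically only to keep them apart. The Argonaute list holds 6 red points, and cholesterol synthesis lies mostly left of the line.

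Not all of these calls stood on the same footing. Of the 74 named genes called, 42 kept an adjusted p under 0.05 when any 1 of the 8 libraries was left out, and 12 of those 42 also passed without the pairing, namely *Eif4ebp2*, *Elk4*, *Mfsd4a*, *Cmtm4*, *Ago2*, *Zfp280b*, *Zc3hav1l*, *AI606181*, *Hpgd*, *Trhr*, *Dcp2* and *Mafg*. Of these, *Elk4* and *Mfsd4a* overlap in position on opposite strands. Among the calls lost on leaving out at least 1 library were those of *Top2a*, *Rasgef1c*, *Reln*, *Sc5d*, *Gsg1l*, *Syndig1l*, *Arc*, *Dusp5*, *Egr3*, *Gfra1*, *Gap43*, *Tuba1a*, *Gas2l3*, *E2f7*, *Ankrd1*, *Etv3*, *Dicer1*, *Tnrc6b*, *Cnot6*, *Bach2*, *Hspb1*, *Dhrs3*, *Rxrg*, *Kcnc2*, *Cacna1e*, *Slc30a3*, *Gad1*, *Cck*, *Olig2*, *Hist1h4m* and *Hist1h2bm*. Those of *E2f7* and *Ankrd1* were lost in each such fit that tested them. By list, leaving out 1 library gave 3 to 6 higher Argonaute and decapping genes, 0 to 5 higher immediate early genes, 1 to 3 lower retinoid genes, 0 to 3 higher GABAergic markers and 1 to 4 higher histone genes. For each of the 74 genes the direction was the same in every fit that tested it, and *Ankrd1* was tested in 5 of the 8.

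The cultures held glia beside neurons, and these differed more between replicate numbers than between isoforms. In bulk RNA, fewer cells of a type and less RNA per cell cannot be told apart. The neuron markers *Map2*, *Tubb3* and *Rbfox3* were read in all 8 libraries and differed by 0.10, -0.36 and -0.10, and the 13 neuron markers summed to 3801 to 7667 CPM with apoE3 and 4039 to 7482 CPM with apoE4, higher in 3 of 4 pairs. Only *Gap43* was called among them. The 12 excitatory markers summed to 1949, 2842, 2749 and 1194 CPM with apoE3 and 3022, 2944, 3187 and 1255 CPM with apoE4, higher in 4 of 4 pairs, with 0 called by edgeR (2 higher and 2 lower at an unadjusted p under 0.05), *Slc17a6* at -0.66, *Prox1* at 0.42, *Slc17a7* at 0.11 and *Camk2a* at 0.46. The 16 GABAergic markers ranged from 752.5 to 1131 CPM with apoE3 and from 732.5 to 1214 CPM with apoE4.

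The 12 astrocyte markers summed to 4618, 1765, 3438 and 6832 CPM with apoE3 and 3694, 1637, 3761 and 5587 CPM with apoE4, lower in 3 of 4 pairs, with 0 called, and *Gfap* differed by -0.43, *Aqp4* by -0.07, *Aldh1l1* by -0.42 and *Slc1a2* by 0.36. The 12 oligodendrocyte lineage markers were all below 0, with a median of -0.33, and their sum was lower in 4 of 4 pairs, at 169.9 to 1018 CPM with apoE3 and 132.8 to 877.4 CPM with apoE4. Only *Olig2* passed, falling by 0.61, whereas *Mbp* and *Mog* differed by -0.27 and -0.15. Of 10 tested markers of dividing progenitors *Top2a* was lower and the sum was lower in 4 of 4 pairs, at 558.3 to 4463 CPM and 426.1 to 3533 CPM, largely from *Vim* (-0.43), *Nes* (-0.40) and *Sox2* (-0.29). *Serpina3n*, *Spp1*, *Tnc*, *Hspb1* and *Col6a1* shared a pattern with the oligodendrocyte and progenitor sums, in that replicates 1 and 4 were above replicates 2 and 3 in both groups. The same order was found in 13 of the 27 named genes called lower and in 18 of the 47 called higher, *Igf2bp1*, *Cdk6*, *E2f2* and *Ptpn14* among them, and the part of glia in these differences was not tested.

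The 12 microglia markers, whose sum was lower in 2 of 4 pairs, summed to 21.98 to 112.3 CPM with apoE3 and 24.36 to 88.89 CPM with apoE4, with 10 of them below 0 and 0 called (0 at an unadjusted p under 0.05), and *Csf1r*, *C1qb*, *Aif1* and *Cx3cr1* differed by 0.32, -0.41, 0.14 and -0.43. Endothelial cells left 2.747 to 18.44 CPM and 2.993 to 19.28 CPM over 6 tested markers, with *Flt1* at 0.25, *Pecam1* at -0.07 and *Emcn* at -1.45, and the defining marker *Cldn5* had 10 reads over the apoE3 and 9 over the apoE4 libraries. The 14 mural cell and fibroblast markers summed to 41.41 to 600.1 CPM and 40.50 to 518.4 CPM, with 0 called and 2 higher at the unadjusted level, and *Acta2*, *Tagln*, *Myh11* and *Col1a1* differed by -0.32, 0.04, 1.01 and 0.97. In no marker list was a tested member at 0 in all 8 libraries.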

How the data were processed

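RNA of the 16 libraries was ribosome-depleted, prepared with a TruSeq kit and sequenced on a NovaSeq. The authors aligned reads to mm10 with STAR and counted them per gene with HTSeq, so each deposited file holds unnormalized counts, one for each of 48397 gene symbols. The annotation release and the use of strand in counting are not given in the sources used here. The 5 HTSeq rows that name no gene were left out.

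The counts were fitted with edgeR 4.0.16 in R 4.3.3 (TMM scaling, filterByExpr with a minimum count of 10, total of 15 and proportion of 0.7, quasi-likelihood test, Benjamini-Hochberg over all 17038 tested genes), with group and replicate number over all 16 libraries. CPM used TMM-scaled library sizes. The replicate number was kept as a block because same-numbered apoE4 and apoE3 libraries deviated together from their group means (correlations 0.427, 0.813, 0.643 and 0.790, against -0.736 to 0.439 for different numbers). The study states independent cultures for each treatment. Between 2 libraries of a group, chi-square per degree of freedom over genes was at least 37.6, so none was counted as a repeat of another. Alternatives were no block, DESeq2 1.42.0 size factors or test, other low-count filters, only the 8 libraries, length and GC offsets, and leaving out libraries. The fit was tested on simulated data.

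Positions, 3′ UTR lengths and exon overlaps are from GENCODE M21 (GRCm38), promoters and miRNAs from RefSeq. The members, the 45 gene lists and the naming rule were chosen with earlier results of these data known. The rule named, in each direction, the 15 genes of smallest p with a fold of at least 2 and the same sign in 4 pairs (predicted genes and small RNAs were counted only, 9 higher and 5 lower), up to 6 called members of each list or else the 2 of smallest p, the genes the study discusses or stained, and the first 3 markers of each cell type. A few genes that the rule named are not reported here.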

Additional observations from a re-analysis of the deposited data

Results flagged for a closer look

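Among 133 named genes, the 4 apoE3 and the 4 apoE4 libraries were each searched for a library whose gap to its nearest neighbour took up so much of the group's range in CPM that it passed Dixon's 95% critical value for 4 samples, and 19 of 266 groups held one. Chance flags about 1 group in 20. With apoE3 the library apart was replicate 2 for *Sbno2* (54.7 CPM, below the others), *Slc17a6* (68.5 CPM) and *Gpc3* (4.43 CPM), replicate 1 for *Tuba1a* (1253 CPM, below the others) and *Gad2* (118.4 CPM), and replicate 4 for *AI606181* (5.25 CPM), *Col6a1* (66.1 CPM), *Ppp1r15b* (83.9 CPM), *C1qb* (8.27 CPM), *Cx3cr1* (3.54 CPM), *Acta2* (147 CPM) and *Tagln* (164 CPM). With apoE4 it was replicate 1 for *Tnrc6b* (230.3 CPM), replicate 2 for *Aif1* (5.67 CPM), replicate 3 for *Gad1* (181 CPM, below the others) and *Csf1r* (1.83 CPM, below the others), and replicate 4 for *Camk2a* (204 CPM, below the others), *C1qb* (4.48 CPM) and *Cx3cr1* (1.78 CPM). The microglial *C1qb* and *Cx3cr1* were high in replicate 4 of both groups.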

How the results depend on the processing

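The replicate block decided the number of calls. Without it, 23 genes were higher and 2 lower at an adjusted p under 0.05, and 137 and 76 by the study's criterion, and all 25 calls were among the 300 of the paired fit. Of the 74 named genes that were called, 62 lost the call without the block and 0 changed sign. The DESeq2 test with the block gave 391 and 285 genes, or 449 and 282 by the study's criterion, and shared 294 of the 300. Without a filter on low counts the numbers were 715 and 480, or 447 and 220, with 294 shared. A filter of 1 CPM in 8 libraries, which tested 14001 genes, left 75 and 54 genes at the study's criterion, against 227 and 130 in the main fit. At the adjusted threshold it gave 169 and 108 genes and shared 267 of the 300 calls. The 8 libraries alone gave 212 and 146 genes, or 146 and 92, and shared 227 of the 300. DESeq2 size factors kept 298 of the 300 calls, and offsets for length and GC content kept 259.

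Leaving out 1 library, or 1 replicate number in all groups, gave 33 to 283 higher and 9 to 194 lower genes at the adjusted threshold, with the lowest values without replicate 3 (33 and 9) and without replicate 1 (34 and 15). By the study's criterion the ranges were 171 to 365 and 128 to 167. Of the genes that were not called, some changed sign. *Otof* was 0.12 without the block and 0.021 with the 8 libraries alone, *Map2* -0.027 with length and GC offsets and *Tagln* -0.19 without the block. On leaving out libraries, *Otof* lay between -0.32 and 0.49, *Liph* between -0.66 and 0.00869, *Syp* between -0.056 and 0.12, *Slc32a1* between -0.0547 and 0.20, *Mog* between -0.33 and 0.012, *Aif1* between -0.085 and 0.31, *Cx3cr1* between -0.66 and 0.12, *Pecam1* between -0.36 and 0.17, *Acta2* between -0.51 and 0.12 and *Tagln* between -0.11 and 0.39. Except where stated, the cause was not tested. Genes with too few reads for the filter (31359 of 48397) were not tested at this depth.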
